A study of Homo sapiens with 8 samples.

Results

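The genes described here are 10 epithelial genes in MP38, a BAP1-mutant uveal melanoma (UM) cell line: CDH1, ESRP1, ESRP2, C1orf116, EPCAM, GRHL1, GRHL2, OVOL1, OVOL2 and ST14, of 35238 gene symbols counted. They were listed by name, and CDH1 and C1orf116 were chosen by their measured changes, which go opposite ways with histone deacetylase (HDAC) and BET inhibitors. The changes of this pair against the control and against mivebresib are therefore given as values with no test. Bulk RNA sequencing was done on 4 groups of 2 libraries, all kept for 24 h in medium with 0.1% DMSO. The control received DMSO alone, and the other groups also received 40 nM romidepsin, 40 nM quisinostat or 1200 nM mivebresib. Romidepsin and quisinostat inhibit HDACs, and mivebresib occupies the bromodomains with which BET proteins bind acetylated histones. Replicates were separate wells of 1 cell line, so p-values measure the spread between wells.

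Epithelial cells hold together through E-cadherin, the product of CDH1, which binds the same protein on the neighboring cell and is anchored to actin by catenins. Transcription factors of the GRHL and OVOL families maintain this state, ESRP1 and ESRP2 direct the epithelial pattern of alternative splicing, and repressors of the ZEB and SNAI families silence CDH1 in mesenchymal cells. Melanocytes come from the neural crest and are not epithelial, although skin melanocytes use E-cadherin to contact keratinocytes. In UM, CDH1 RNA is known to be higher in the molecular class of tumors with high metastatic risk.

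Depth was nearly even, with 28483235 to 29359024 counts per library. By library total alone, a single count was thus worth 0.0341 to 0.0351 CPM (the count scaled to a common library total). No count in a library allows up to 3 counts, or 0.102 to 0.105 CPM on this scale. The CPM of genes given below carry a further scaling between libraries (TMM), so these values are only approximate for them. The limit of 3 counts covers counting error only. The control libraries differed more from each other than the libraries of any drug group, with a chi-square statistic per degree of freedom of 58.1 against 9.52 to 9.79. Melanocytic markers summed to 3563 to 5452 CPM per library. Leukocyte markers summed to at most 0.665 CPM, and keratinocyte markers to 27.3 to 71.2 CPM in the control and 25.5 to 41.5 with the drugs. KRT10 made up most of the keratinocyte sum, and 4 of the 6 keratinocyte markers had no more than 3 counts in any library. Fibroblast markers summed to 14.5 to 22.8 CPM in the control, 20.3 to 24.9 with romidepsin, 34.8 to 35.9 with quisinostat and 8.38 to 10.6 with mivebresib, and endothelial markers to 0.602 to 0.913, 3.03 to 3.57, 5.16 to 5.83 and 1.13 to 1.40 CPM. As with KRT10, few genes made up most of each of these sums: PDGFRA and COL1A1 for fibroblasts, KDR for endothelium and TYRP1 for melanocytes. The sums therefore do not measure shares of cell types. The part of these markers in the results was not tested. In bulk RNA, fewer cells that use a gene and less RNA per cell cannot be told apart.

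Of the 10 genes, 5 had enough counts to be tested: ESRP1, C1orf116, CDH1, GRHL1 and OVOL2. The last passed only through the libraries treated with HDAC inhibitors, so it had to differ between groups. Per kilobase of merged exons in the control, ESRP1 stood at 4.51 CPM, C1orf116 at 2.82, CDH1 at 0.289, GRHL1 at 0.127 and ESRP2 at 0.0386. N-cadherin (CDH2), the cadherin of mesenchymal and neural crest cells, stood at 26.5 CPM per kilobase.

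**Figure D1:**
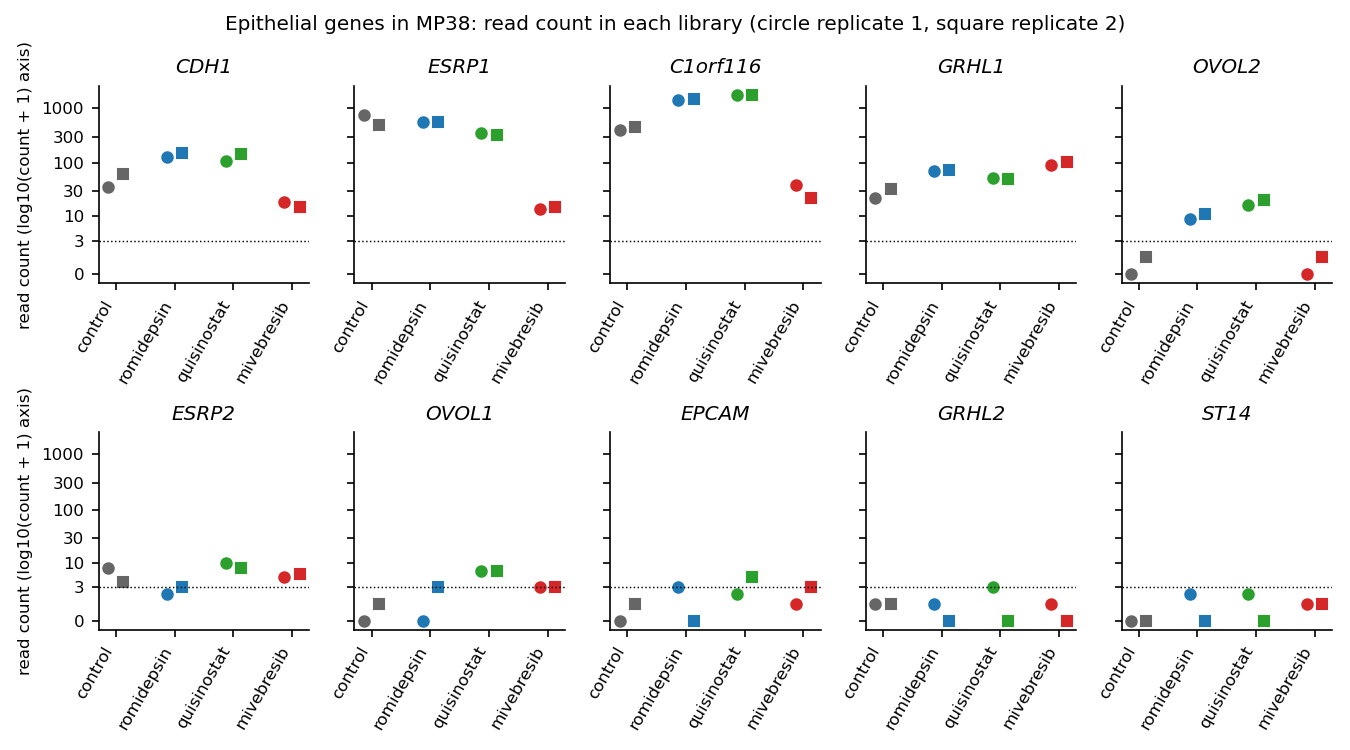
Read counts of the 10 epithelial genes in each MP38 library, on a log10(count + 1) axis, by group; circles are replicate 1, squares replicate 2, and the dotted line marks 3 counts. CDH1 and C1orf116 lie above the control with both HDAC inhibitors and below it with mivebresib, ESRP1 falls to 14 and 15 counts with mivebresib, and EPCAM, GRHL2 and ST14 have 5 counts or fewer throughout.

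To compare the drugs, a single edgeR quasi-likelihood model was fitted to the counts of 15085 genes in all libraries, with Benjamini-Hochberg adjustment over these genes. A gene is said to rise or fall when its adjusted p was below 0.05, and the log2 FC is the log2 ratio of the drug to the control.

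ESRP1, the splicing regulator, was the most abundant of these genes in the control and was nearly lost with mivebresib. It had 736 and 489 counts in the control libraries, 555 and 557 with romidepsin, 345 and 320 with quisinostat, and 14 and 15 with mivebresib. The mivebresib libraries lay far below all the others, the quisinostat libraries lay below the control, and the romidepsin libraries fell between the control replicates. The control held 22.0 ± 5.81 CPM of ESRP1 (SD, n = 2) and the mivebresib group 0.526 ± 0.0194, which is 41.5-fold lower (log2 FC -5.37, SE 0.25, edgeR adjusted p = 2.6e-06). At this adjusted p alone, 24.1% of all tested genes were lower with mivebresib. Ordered by log2 FC, ESRP1 was number 15 from the bottom among the 15085 genes, and number 3 among the 12024 genes whose log2 CPM averaged 1 or more.

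With quisinostat, ESRP1 fell to 10.6 ± 0.517 CPM (log2 FC -1.06, SE 0.16, edgeR adjusted p = 0.00081), where 25.1% of tested genes were lower. Of all genes, 10.5% were lower with both quisinostat and mivebresib. Romidepsin libraries held 19.1 ± 0.0855 CPM of ESRP1, giving a log2 FC of -0.20 (95% confidence interval -0.56 to 0.16, adjusted p = 0.366). This value rested on the control: without control replicate 1 it was 0.12, and without control replicate 2 it was -0.45 (adjusted p = 0.0063). Compared directly at the same 40 nM, quisinostat left less ESRP1 than romidepsin (log2 difference -0.86, SE 0.16, edgeR adjusted p = 0.0047), a direction in which 14.6% of genes passed. Mivebresib left less than either, with log2 differences of -5.17 (SE 0.25, adjusted p = 3.5e-06) from romidepsin and -4.32 (SE 0.26, adjusted p = 4.5e-06) from quisinostat, where 25.2% and 31.5% of genes were lower.

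ESRP2, the paralog of ESRP1, was close to the detection limit. It had 8 and 4 counts in the control, 2 and 3 with romidepsin, 10 and 8 with quisinostat, and 5 and 6 with mivebresib. With the filter on low counts removed, none of its changes passed (edgeR adjusted p of 0.286, 0.671 and 0.993 for romidepsin, quisinostat and mivebresib). ESRP2 shares 149 exonic bases with NFATC3 on the opposite strand in GENCODE 29, and whether the counting used strand is not given in the sources used here.

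ESRP proteins act on exons, which gene counts do not resolve, so only the totals of genes with ESRP-regulated exons can be given. Of 8 such genes, 2 rose and 2 fell with romidepsin, 2 and 4 with quisinostat, and 3 and 2 with mivebresib. The shares of all genes were 15.2% and 15.8%, 28.0% and 25.1%, and 22.2% and 24.1%. FGFR2, whose epithelial and mesenchymal receptor isoforms are a classic ESRP target, rose from 37 and 37 counts in the control to 126 and 144 with mivebresib (log2 FC 1.88, SE 0.26) and 170 and 191 with quisinostat (2.10, SE 0.25). Its rise with romidepsin, to 94 and 55 counts (0.94, SE 0.27), had an edgeR adjusted p of 0.031 and did not pass without control replicate 1 (0.064). MAGI1 rose with quisinostat (0.58) and mivebresib (0.53), ENAH rose with romidepsin (0.36) and fell with quisinostat (-0.39, not with library size alone), and EXOC7 fell with romidepsin (-0.40), quisinostat (-0.44) and mivebresib (-0.27). The log2 FC of CD44 was -0.00012, -0.24 and 0.15 with these drugs, none past the test. Among splicing factors of the mesenchymal pattern, RBFOX2 rose slightly with romidepsin (log2 FC 0.27) and fell slightly with mivebresib (-0.31), and QKI fell with romidepsin (-0.39), quisinostat (-0.47) and mivebresib (-0.24). RBM24 rose with quisinostat (1.39) and fell with mivebresib (-2.62), and PTBP1 fell with each drug (-0.55, -0.93 and -0.26). The calls of EXOC7 and PTBP1 with mivebresib were lost without control replicate 2. Both RBFOX2 and QKI were abundant, at 20.9 and 14.5 CPM per kilobase in the control.

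CDH1 (ENSG00000039068, chromosome 16, 68737225 to 68835548 in GRCh38) was sparsely expressed and stood higher with the HDAC inhibitors and lower with mivebresib, as the choice of genes fixed. It had 37 and 62 counts in the control, 130 and 155 with romidepsin, 107 and 148 with quisinostat, and 19 and 15 with mivebresib. The groups did not overlap with the control, while the romidepsin and quisinostat libraries overlapped each other. In CPM (SD, n = 2), CDH1 averaged 1.79 ± 0.675 in the control, 4.90 ± 0.617 under romidepsin, 4.05 ± 0.937 under quisinostat and 0.617 ± 0.110 under mivebresib. The log2 FC of 1.46 (SE 0.28), 1.18 (SE 0.28) and -1.53 (SE 0.37) leaned on the control replicates: without control replicate 1 the values were 1.14, 0.83 and -1.87, and without control replicate 2 they were 1.90, 1.62 and -1.09. Quisinostat and romidepsin, whose difference was not part of the choice, differed in CDH1 by a log2 value of -0.28 (95% confidence interval -0.85 to 0.30, edgeR adjusted p = 0.432). GENCODE 29 places an antisense gene over 347 exonic bases of CDH1.

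C1orf116 (ENSG00000182795, chromosome 1, 207018521 to 207032756), which encodes an androgen-regulated protein of epithelial tissues, had the widest swing. It had 406 and 457 counts in the control, 1392 and 1432 with romidepsin, 1706 and 1711 with quisinostat, and 40 and 23 with mivebresib. Its CPM (SD, n = 2) averaged 15.5 ± 1.63 without drug, and 48.6 ± 1.07 and 54.2 ± 0.337 under romidepsin and quisinostat, but 1.15 ± 0.450 under mivebresib. These are log2 FC of 1.64 (SE 0.13), 1.80 (SE 0.13) and -3.76 (SE 0.19), so that mivebresib libraries held 13.5-fold less than the control and 47.3-fold less than quisinostat. The libraries of the HDAC inhibitors did not overlap, and quisinostat exceeded romidepsin by a log2 value of 0.16 (95% confidence interval -0.12 to 0.44, edgeR adjusted p = 0.354), where 21.0% of all genes were higher.

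Across the 15085 tested genes, 276 (1.83%) rose with both HDAC inhibitors and fell with mivebresib at an adjusted p below 0.05. With the additional threshold of a log2 FC beyond 1.5 each time, 17 (0.113%) did so. The choice of CDH1 and C1orf116 used this pattern, so nothing is read from these shares for either gene, and the drugs share the control libraries.

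**Figure D2:**
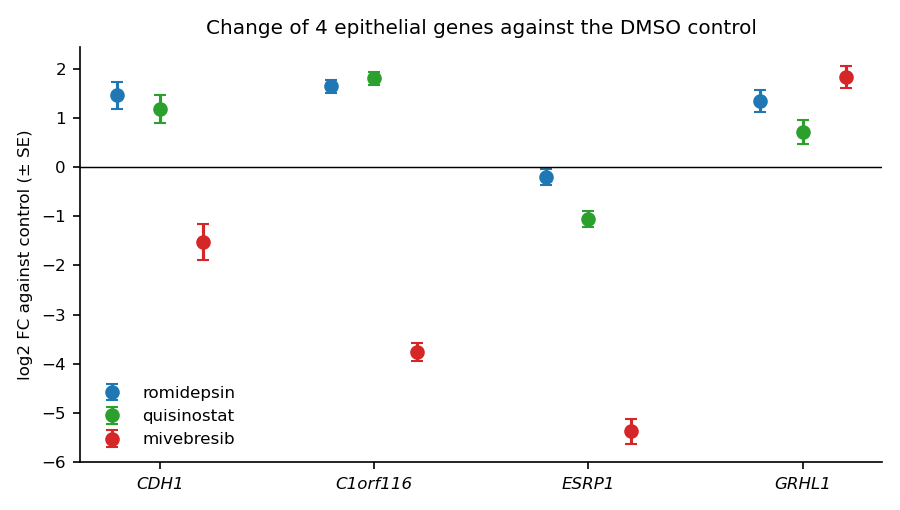
Log2 FC against the DMSO control (vertical axis, points with SE bars) of CDH1, C1orf116, ESRP1 and GRHL1 with romidepsin, quisinostat and mivebresib. CDH1 and C1orf116 lie above 0 with both HDAC inhibitors and below 0 with mivebresib, ESRP1 reaches -5.37 with mivebresib, and GRHL1 lies above 0 with every drug.

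GRHL1 (ENSG00000134317, chromosome 2, 9951693 to 10002277), a grainyhead-like factor of the epidermis, was higher with every drug and highest with mivebresib, where ESRP1, C1orf116 and CDH1 were lowest. It had 23 and 33 counts in the control, 73 and 76 with romidepsin, 54 and 50 with quisinostat, and 94 and 105 with mivebresib. No drug library overlapped with the control, which with 2 libraries per group is a description and not a test. Control libraries held 1.01 ± 0.276 CPM of GRHL1 (SD, n = 2), and it rose to 3.61 ± 0.239 with mivebresib (log2 FC 1.83, SE 0.22, edgeR adjusted p = 0.00026) and 2.56 ± 0.0779 with romidepsin (1.34, SE 0.23, adjusted p = 0.0032). With both HDAC inhibitors and mivebresib alike higher, it was 1 of 814 such genes (5.4%). With quisinostat it reached 1.65 ± 0.0829 CPM (0.71, SE 0.24, adjusted p = 0.034). This last call was lost with DESeq2 (adjusted p = 0.114), with only the 4 libraries of the comparison (0.0801), and without control replicate 1 (0.205), either romidepsin library (0.0521 and 0.0526) or either quisinostat library (0.128 and 0.0925). Adjusted p below 0.05 with a higher value was reached by 22.2% of all genes with mivebresib, 15.2% with romidepsin and 28.0% with quisinostat. In direct comparisons with edgeR, mivebresib gave more GRHL1 than quisinostat (log2 difference 1.13, SE 0.20, adjusted p = 0.0016, a direction in which 26.2% of genes passed). Romidepsin gave more than quisinostat (quisinostat minus romidepsin -0.63, SE 0.21, edgeR adjusted p = 0.044), where 14.6% of genes were lower. That call lay near the threshold, and direct comparisons were not examined under the alternative settings. The difference between mivebresib and romidepsin, where 23.7% of genes were higher, was not past the test (0.49, 95% confidence interval 0.048 to 0.94, edgeR adjusted p = 0.0653).

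The promoters of C1orf116 and GRHL1, the 2 members found in the RefSeq promoter table (GRCh38.p14), are shown because these genes went opposite ways with mivebresib. Each is the run of 250 bases just before the start of the gene, 5′ to 3′ on the coding strand, from chr1:207032757-207033006 on the minus strand and chr2:9951443-9951692 on the plus strand. Capitals mark matches, on either strand, to CACCTG (the E-box bound by ZEB and SNAI factors) and CCAAT.
C1orf116: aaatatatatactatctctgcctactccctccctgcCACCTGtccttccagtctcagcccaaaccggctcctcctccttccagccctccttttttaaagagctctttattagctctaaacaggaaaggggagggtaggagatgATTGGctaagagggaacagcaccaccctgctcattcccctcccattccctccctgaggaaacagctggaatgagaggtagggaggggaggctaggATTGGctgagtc
GRHL1: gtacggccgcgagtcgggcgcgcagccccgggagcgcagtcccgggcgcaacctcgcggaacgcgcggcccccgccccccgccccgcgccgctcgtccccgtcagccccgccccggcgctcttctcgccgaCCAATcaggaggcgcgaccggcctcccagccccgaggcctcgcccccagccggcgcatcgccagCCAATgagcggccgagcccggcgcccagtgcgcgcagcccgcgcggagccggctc
These promoters differ in base composition. That of C1orf116 holds 1 CpG and is 52.4% G and C, and 6.05% of the 35114 promoters in the table have fewer CpGs. That of GRHL1 holds 45 CpGs and is 81.6% G and C, and 99.4% have fewer, with a median over all promoters of 11. The E-box of C1orf116 lies 214 to 209 bases before the start, and 17.5% of all promoters of this length hold this E-box. The CCAAT box occurs in 32.0% of them, the AP-1 site TGANTCA in 6.57% and AACCNGTT (the grainyhead site) in 1.49%, and neither of the latter is in these windows. A match of letters does not show that a factor binds.

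OVOL2 (chromosome 20, 17956979 to 18059188), a zinc-finger repressor of the mesenchymal program, was found with the HDAC inhibitors and hardly elsewhere. It had 0 and 1 counts in the control, 9 and 11 with romidepsin, 17 and 21 with quisinostat, and 0 and 1 with mivebresib. Set against 3 counts per control library, its mean CPM was 3.19 times as high with romidepsin and 5.59 times with quisinostat. Set against 3 counts per mivebresib library, the same means were 3.16 and 5.55 times as high. The counting error of the romidepsin and quisinostat libraries is left out, so these are not strict minimum folds. These folds are descriptions with no test, since the filter on low counts kept OVOL2 through its HDAC inhibitor libraries alone. Quisinostat minus romidepsin was 0.80 on the log2 scale. This difference is likewise a description with no test, since it compares the libraries through which OVOL2 passed the filter. OVOL2 shares 59 exonic bases with SNX5 on the same strand, a gene with 15984 counts over the 8 libraries.

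The paralog OVOL1 had 0 and 1 counts in the control, 0 and 3 with romidepsin, 7 and 7 with quisinostat, and 3 and 3 with mivebresib. In the fit without a filter its value with quisinostat had an edgeR adjusted p of 0.0729, with an edgeR p of 0.027 before adjustment. OVOL1 shares 1044 exonic bases with an antisense gene.

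The remaining genes were hardly detected. EPCAM, the adhesion molecule of simple epithelia, had 15 counts over all 8 libraries and at most 5 in any. GRHL2, which activates CDH1 and ESRP1 in many epithelia, had 7 counts in all and at most 3 in a library. ST14, which encodes the membrane protease matriptase, had 0 counts in both control libraries and 6 counts in all. In the fit without a filter no change of these genes passed the test, with edgeR adjusted p from 0.312 to 0.941, and differences were not detectable at this depth.

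To see how other genes of the epithelial program behaved, 66 genes in 7 lists (junctions, keratins, polarity, transcription factors and the matriptase network) were examined, of which 41 were tested. With romidepsin 21 rose and 1 fell, or 51.2% and 2.44% of those tested, where 15.2% and 15.8% of all genes did so. With quisinostat 20 rose and 5 fell (48.8% and 12.2%, against 28.0% and 25.1% of all genes), and with mivebresib 17 rose and 6 fell (41.5% and 14.6%, against 22.2% and 24.1%). The lists were chosen with earlier results of these data known. In addition, F2RL1 and CRB3 passed the filter only through drug libraries, where they were higher. The shares are therefore descriptions, and no conclusion is drawn from their distance to those of all genes. The median log2 FC of the 41 genes was 0.38, 0.52 and 0.40, against -0.012, -0.0036 and 0.0067 over all genes. Without romidepsin replicate 1, 13 genes rose with romidepsin, and without control replicate 1, 3 fell. With quisinostat, 2 fell without quisinostat replicate 1 and 3 without replicate 2. Scaling by library size alone, which puts the median gene at 0.20 with quisinostat, left 2 genes lower with that drug.

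**Figure D3:**
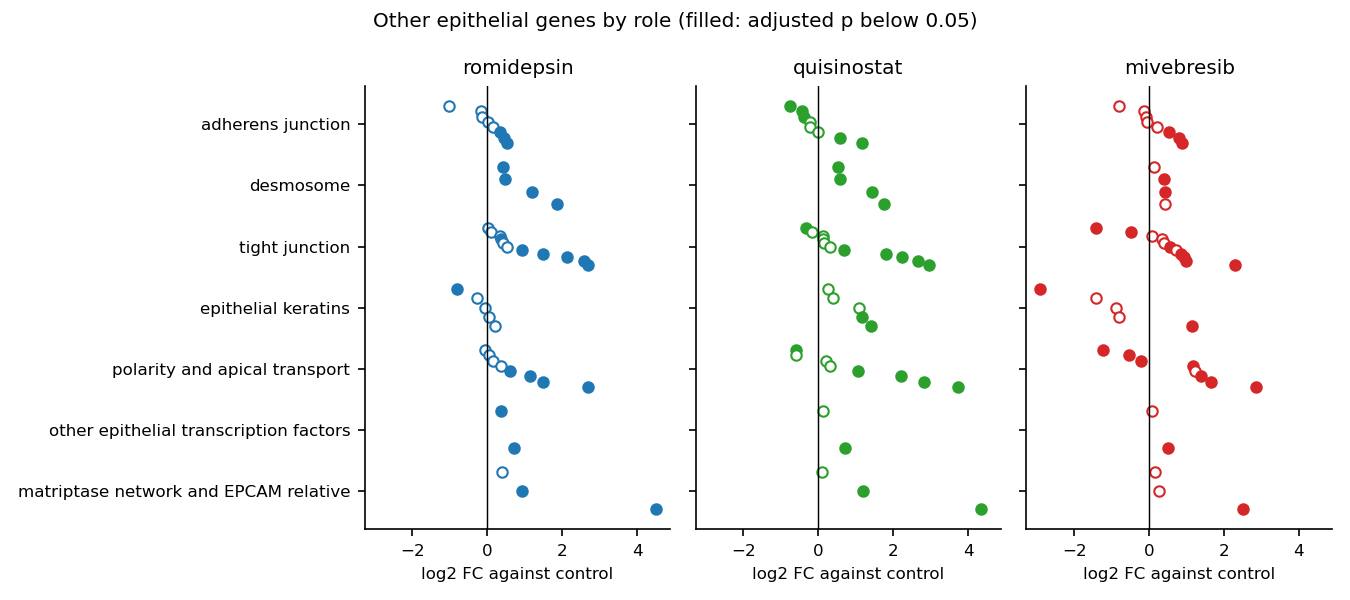
Log2 FC against the DMSO control (horizontal axis) of the 41 tested genes of the epithelial lists, 1 point per gene, in a panel per drug and a row per list; filled points have an adjusted p below 0.05. Most filled points lie right of 0 with each drug. The point farthest right with romidepsin (4.51) and quisinostat (4.35) is F2RL1, which passed the filter on low counts only through drug libraries.

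Of 11 tested tight junction genes, 6 rose with romidepsin and 5 each with quisinostat and mivebresib, where 15.2%, 28.0% and 22.2% of all genes rose. Occludin (OCLN), a membrane protein of the tight junction, rose from 37 and 55 counts in the control to 292 and 282 with romidepsin (log2 FC 2.57, SE 0.18), 418 and 400 with quisinostat (2.97, SE 0.17) and 85 and 91 with mivebresib (0.94, SE 0.20, edgeR adjusted p = 0.0046). Cingulin (CGN), which links the junction to the cytoskeleton, rose from 51 and 61 counts to 384 and 375 with romidepsin (2.69) and 304 and 292 with quisinostat (2.23), and had 60 and 57 with mivebresib (0.074, adjusted p = 0.767). The scaffold gene TJP3 rose with romidepsin (2.14), quisinostat (2.66) and mivebresib (0.86). LSR, a receptor of tricellular junctions, rose likewise (1.47, 1.82 and 0.99). The claudins, which form the seal, took other courses. CLDN3 did not pass with the HDAC inhibitors (0.53 and 0.16) and rose from 23 and 22 to 109 and 109 counts with mivebresib (2.28, SE 0.20, edgeR adjusted p = 5.1e-05). CLDN1 fell with mivebresib from 359 and 560 to 181 and 164 (-1.40, SE 0.22, edgeR adjusted p = 0.00096). CLDN7 had at most 3 counts in any library.

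In desmosomes, the spot junctions tied to keratin, all 4 tested genes of 8 rose with both HDAC inhibitors, where 15.2% of all genes rose with romidepsin and 28.0% with quisinostat. Plakophilin 2 (PKP2) rose from 125 and 170 counts to 558 and 559 with romidepsin (log2 FC 1.85) and 533 and 602 with quisinostat (1.76), and DSG2, a desmosomal cadherin, by log2 FC of 1.18 and 1.42. Neither passed the test with mivebresib (0.14, edgeR adjusted p = 0.531, and 0.44, 0.0693). DSP rose with every drug (0.47, 0.57 and 0.42), as did PERP (0.42, 0.52 and 0.40), but without control replicate 1 both calls with mivebresib and that of PERP with romidepsin were lost. Of the catenins that bind E-cadherin, CTNNB1 (beta-catenin) fell with quisinostat (log2 FC -0.76), and CTNNA1 (-0.39) and CTNND1 (-0.42) fell with it except when library size alone was used. CTNND1 rose with romidepsin (0.34), but not without control replicate 1. JUP (plakoglobin) rose with romidepsin (0.53), quisinostat (1.17) and mivebresib (0.89), and NECTIN1, an adhesion receptor, with quisinostat (0.58) and mivebresib (0.80).

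Among genes of polarity and apical transport, CDS1, a lipid enzyme of epithelial signatures, rose from 46 and 42 counts to 311 and 286 with romidepsin (log2 FC 2.69), 633 and 681 with quisinostat (3.72) and 303 and 331 with mivebresib (2.86). MAL2, a transport protein of polarized cells, rose likewise (1.49, 2.82 and 1.39), as did LLGL2, a basolateral polarity factor (0.61, 1.07 and 1.66). PARD6B rose with romidepsin (1.15) and mivebresib (1.17). The mucin MUC1 fell with mivebresib (-1.23), as did PATJ (-0.54). CRB3 had 3 and 2 counts in the control and 12 and 15 with quisinostat. Its mean CPM with quisinostat was 3.97 times the level of 3 counts per control library, which is not a minimum fold. It passed the filter only through these quisinostat libraries, so this is a description although it is counted among the genes that rose. Keratins of simple epithelia were low: KRT8 rose with quisinostat (1.41), from 16 and 14 counts to 52 and 39, and KRT18 with quisinostat (1.18) and mivebresib (1.14), while KRT80 fell with romidepsin (-0.82) and from 341 and 286 to 41 and 42 counts with mivebresib (-2.90). F2RL1, a receptor activated by matriptase and related proteases, rose from 6 and 4 counts to 121 and 123 with romidepsin (4.51) and 32 and 25 with mivebresib (2.50), and by a log2 FC of 4.35 with quisinostat. SPINT1, an inhibitor of matriptase, rose with romidepsin (0.92) and quisinostat (1.19), although matriptase itself was at the detection limit. Of the factors, KLF4 rose with every drug (0.36, 0.71 and 0.52; without control replicate 2 not with romidepsin) and KLF5 with romidepsin (0.71).

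Of 12 repressors of CDH1 tested, 4 rose and 3 fell with romidepsin (33.3% and 25.0%, against 15.2% and 15.8% of all genes). With quisinostat 4 rose and 3 fell (33.3% and 25.0%, against 28.0% and 25.1%), and with mivebresib 3 rose and 5 fell (25.0% and 41.7%, against 22.2% and 24.1%), so that several of these shares lay near those of all genes. ZEB2, at 249 ± 26.0 CPM (SD, n = 2) in the control, fell with romidepsin (log2 FC -0.68), quisinostat (-0.72) and mivebresib (-1.38), and SNAI2 fell with romidepsin (-0.63) and mivebresib (-1.28). ZEB1 rose with romidepsin (0.88) and quisinostat (1.10), as did TWIST1 (0.65 and 1.06), SNAI1 (1.72 and 1.21) and KLF8 (2.26 and 2.91). With mivebresib, TWIST1 rose (0.95), ZEB1 rose slightly (0.35, not without control replicate 1), and FOXC2 fell (-2.75). SNAI3, the other gene counted as higher with mivebresib, had 6 and 2 counts in the control and 15 and 14 with mivebresib (1.84). It passed the filter only through drug libraries, so this is a description. Without control replicate 2 the log2 FC of SNAI3 was 1.29. TCF3 fell with every drug (-0.60, -0.46 and -0.60). Mesenchymal genes did not pass the test with romidepsin. VIM fell with quisinostat (-0.73), FN1 with mivebresib (-1.35), and SPARC (-0.81 and -0.98) and S100A4 (-1.43 and -1.10, the latter not without control replicate 1) with both, while CDH2 did not pass with any drug (0.12, 0.10 and 0.16, edgeR adjusted p of 0.622, 0.661 and 0.481). CDH11 had 8 and 11 counts in the control and 1 and 0 with mivebresib. Its mean CPM in the control was 3.15 times the level of 3 counts per mivebresib library, with the counting error of the control left out.

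**Figure D4:**
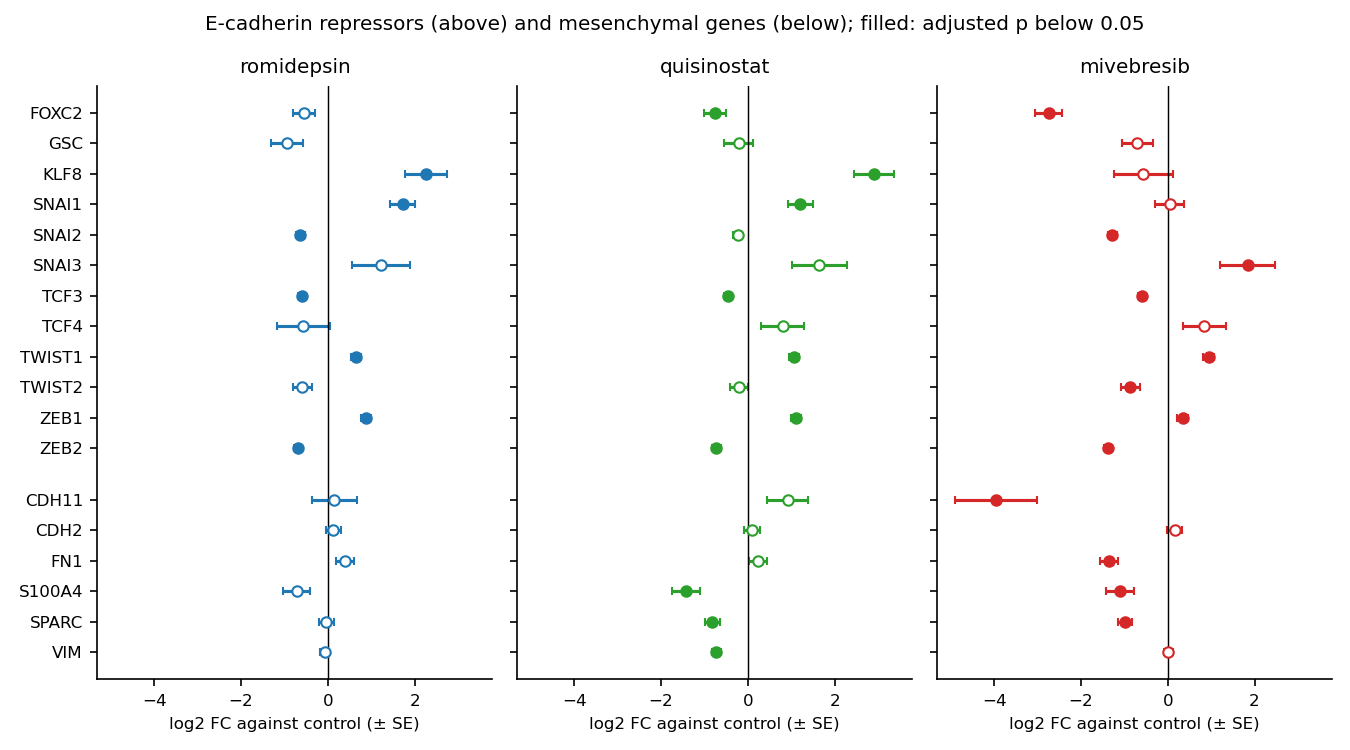
Log2 FC against the DMSO control (horizontal axis, points with SE bars) of 12 repressors of CDH1 (upper rows) and 6 mesenchymal genes (lower rows), in a panel per drug; filled points have an adjusted p below 0.05. ZEB2 lies left of 0 and ZEB1 and TWIST1 right of 0 with every drug, and the points of CDH2 are unfilled and near 0.

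Genes whose log2 CPM followed these patterns most closely over the 8 libraries were looked up among 12023 others whose log2 CPM averaged 1 or more. For ESRP1 they were LRRC39, DUSP9, PRKCE, PRKD3 and FAR2, with Pearson's r from 0.995 to 0.998. LRRC39, for example, went from 26.3 CPM in the control to 22.0, 17.3 and 2.86 with romidepsin, quisinostat and mivebresib. For C1orf116 they were SEMA6B, RGS9, ERCC2, PAPSS2 and MAPK8IP2 (r from 0.996 to 0.998). Of these, RGS9 went from 4.78 to 10.6, 12.4 and 0.817 CPM, and ERCC2 only from 59.0 to 72.3, 69.9 and 41.4. For CDH1 they were PTGER3, FGD4, DCAF5, KIAA1522 and SLC44A3 (r from 0.983 to 0.994). The libraries fall into groups by drug, so these coefficients describe likeness in the pattern of group levels. They do not describe the size of a change and carry no p-value.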

How the data were processed

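MP38 cells were treated in duplicate wells and total RNA was sequenced as strand-specific paired-end mRNA libraries. The authors made the tables with BioJupies. The deposited counts are whole reads per gene symbol without normalization, on hg38 per the labels' processing notes. The aligner, annotation and use of strand in counting are not given in the sources used here. The authors' log table holds log10(CPM + 1) of these counts, which was checked to 4.4e-16, and was not used further, nor was their quantile-normalized table.

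Counts of all 8 libraries were fitted in edgeR 4.0.16 (R 4.3.3) with TMM scaling, filterByExpr by group (minimum count 10) and the quasi-likelihood test, with Benjamini-Hochberg adjustment over 15085 genes; the SE is the log2 FC divided by the root of F. CPM are TMM-scaled, and log2 CPM used a prior count of 2. The study itself used limma on all samples at once. Exon lengths and overlaps came from GENCODE 29 (GRCh38), and older symbols were matched through RefSeq. The scripts were tested on simulated data.

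The members and lists were chosen with earlier results of these data known. Of the lists, the text names up to 3 genes per drug and direction with the largest change at an adjusted p below 0.05, together with others that bear on a member, chosen after their values were seen. Alternatives were DESeq2 1.42.0, limma-voom (limma 3.58.1), RLE factors, library size alone, no filter, the 4 libraries of a comparison, a replicate block, and leaving out each library. The same settings for the list counts were added after the data were seen. Figures were drawn with matplotlib 3.10.9.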

Additional observations from a re-analysis of the deposited data

How the results depend on the processing

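With 2 libraries per group, single libraries set the limit, above all those of the control. ESRP1 with romidepsin changed sign without control replicate 1 (log2 FC 0.12) and passed the test without control replicate 2 (-0.45); the cause was not tested. ESRP1 with quisinostat and mivebresib and GRHL1 with romidepsin and mivebresib kept direction and call under all alternatives run. The log2 FC of ESRP1 with mivebresib ran from -5.62 to -5.07, and that of GRHL1 with mivebresib from 1.58 to 2.14. The 47 genes lower with romidepsin past both thresholds (adjusted p below 0.05 and log2 FC beyond 1.5) ranged from 35 to 75 when a library was left out, and the 156 lower with quisinostat numbered 96 with library size alone. The other counts of called genes stayed within 1.5 times: 569 higher with romidepsin, 1689 with quisinostat, 598 higher and 657 lower with mivebresib. C1orf116 with quisinostat had a log2 FC of 2.00 with library size alone. Of 124 calls in the lists, 8 were lost with library size alone and none with RLE factors, 9 without control replicate 1 and 8 without control replicate 2, and none reversed with library size alone.

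Replicate numbers did not pair the libraries: deviations of same-numbered libraries correlated between -0.16 and 0.16 across groups. With the replicate block, 543 genes were higher and 46 lower with romidepsin, 1687 and 154 with quisinostat, and 579 and 653 with mivebresib. No call on a tested member against the control changed.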
